A study of Rattus norvegicus with 15 samples.

Results

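Cytosolic ribosomal protein genes were followed in the subfornical organ, a small sensory structure of the brain that lies outside the blood-brain barrier and responds to thirst signals and to hormones of energy balance. The genes were taken by symbol, as every gene with a probe set of its own whose symbol starts with Rpl or Rps and a digit, or is Rplp0, Rplp1, Rplp2 or Rpsa, without the S6 kinases. This gave 50 genes on 57 probe sets, out of 14218 genes and 31099 probe sets on the array, and where a gene had several, the brightest on average stands for it. The rats were males of the Sprague Dawley strain, 10 to 12 weeks old, and their RNA was measured on 15 one-colour Affymetrix arrays in 3 groups of 5. The groups were control rats, water-deprived rats and rats deprived of food for 48 h. The RNA of 5 animals was pooled on each array, so the 5 arrays of a group are pools and the spread between them is a spread between pools. The labels state no treatment for the controls and no length of water deprivation, and the series design text, taken word for word, has food withheld for 48 h in every condition.

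A ribosome is built from ribosomal RNA and from the proteins of a large and a small subunit, which cells make in matched amounts. Vertebrate ribosomal protein mRNAs start with a run of pyrimidines, the terminal oligopyrimidine or TOP motif, through which the growth kinase mTOR adjusts their translation to nutrients and energy. Ribosomal protein mRNAs are among the most abundant in most tissues, and for that reason several, such as Rplp0 and Rpl13a, serve as reference genes.

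Of the 50 genes, 45 were bright enough to be tested, meaning a mean log2(signal + 16) above 5.11. They were 27 proteins of the large subunit, 13 of the small subunit, 4 paralogs (Rpl7l1, Rpl26l1, Rps27l and Rps4y2) and the pseudogene symbol Rpl37-ps2. Another 5 were too dim and have no test, namely Rpl28, Rpl30, the muscle paralog Rpl3l, Rpl39l1 and the pseudogene symbol Rps4x-ps1. The means of Rpl3l stayed at or below 2.69 units in every group, and those of Rps4x-ps1 at or below 4.04. A further 36 probe sets list a ribosomal protein together with other symbols and were left out by the rule, so many familiar subunits have no value here. The tested genes were mostly bright, with 38 above a mean log2 signal of 10.

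The start sites show the feature that ties these genes together, and the 30 bases around the annotated start are printed for a selection of members. This selection does not show how common a tract is. Rpl6, called higher below, has no tract by the definition used and is not printed. Rps23 is printed as one of the brightest members. RefSeq promoters of rat build GRCr8 were matched by gene identifier for 41 of the 50 genes. Each window runs 5′ to 3′ on the gene's strand with 15 bases before the annotated start and 15 from it on, and capitals mark its longest run of C and T. The first group holds members with a pyrimidine tract, and the last pair (Rps6 and Rps27l) has none by the definition used.
Rpl5: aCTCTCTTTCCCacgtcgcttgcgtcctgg
Rpl4: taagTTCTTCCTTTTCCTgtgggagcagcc
Rpl14: gggcgggCCCTCTCCCTTCTCgctgagcgc
Rps23: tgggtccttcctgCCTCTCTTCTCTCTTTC
Rplp0: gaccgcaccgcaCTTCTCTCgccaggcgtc
Rpl22: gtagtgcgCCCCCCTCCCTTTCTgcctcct
Rpl35: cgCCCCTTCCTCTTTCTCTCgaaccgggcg
Rps6: gacgCCTCCTaggcggtcggctgtgtcaag
Rps27l: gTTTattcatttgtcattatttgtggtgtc

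The windows lie at chr14:1995211-1995240 on the minus strand for Rpl5, chr8:73566462-73566491 on the plus strand for Rpl4, and chr8:129163605-129163634 on the plus strand for Rpl14. They lie at chr2:23814502-23814531 (plus) for Rps23, chr12:46718376-46718405 (minus) for Rplp0, chr5:168117946-168117975 (plus) for Rpl22 and chr3:43165907-43165936 (minus) for Rpl35. Rps6 lies at chr5:106420526-106420555 (minus) and Rps27l at chr8:76443643-76443672 (plus). A tract was counted where a C followed by C or T bases, at least 7 in all, started within 20 bases of the annotated start. It was present in 25 of 35 proteins of the large and small subunits with a sequence (71.4%), against 20.1% of all 27457 promoters. Read on the opposite strand, it was present in 6 of the 35, against 22.8% of all promoters. The letters CTTCCG, searched on both strands of the 300-base promoter window, were found in 17 of 35 (48.6%), against 17.4% of all promoters. CTTCCG can overlap the tract, and a match is a description of sequence and not of binding. The annotated start can lie a few bases from the base at which transcription begins, so a tract farther from it is not counted.

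The arrays differ in a measure of transcript integrity that runs with the groups, and it has to stand before the results. By the ratio of 5′ to 3′ signal on the Actb and Gapdh controls, 7 arrays were high (log2 -0.86 to -0.71), namely the 5 of food deprivation with arrays 1 and 2 of water deprivation. The other 8, with log2 ratios from -2.81 to -1.24, are the 5 controls and water-deprived arrays 3 to 5. No set contains both control and food-deprived arrays, so food deprivation and array set are tied together except through the water-deprived arrays. Markers of neurons, astrocytes, oligodendrocytes, microglia, endothelium and choroid plexus were measured, but not every listed marker had a probe set of its own. The dimmest, in the choroid plexus list, had a mean signal of 14.3 units, and some markers were too dim to test. The summed signal of 9 oligodendrocyte markers ranged from 5656 to 17005 in controls, from 5035 to 13835 in water deprivation and from 11501 to 16543 in food deprivation. That of 7 choroid plexus and ependymal markers ranged from 3430 to 7728, from 2477 to 11207 and from 5365 to 9981 in the same order. In pooled tissue, fewer cells of a type and less RNA per cell cannot be told apart.

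Food deprivation against control asks which transcripts of the organ differ when rats lack food. Ribosomal protein genes lay higher in the food-deprived rats, by small amounts. The limma test (5 arrays against 5, Benjamini-Hochberg adjusted over all 21729 probe sets tested) called 9 of the 45 genes higher and 0 lower. Among all probe sets tested, 4.77% were called higher and 3.76% lower. The log2 difference was above 0 in 40 of the 45 genes, with a median of 0.21, against a median of 0.05 over all probe sets tested. The food-deprived arrays did not overlap with the controls for 18 members that were higher and 1 (Rps28) that was lower, against 9.84% and 5.61% of all probe sets.

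The members' level by array did not follow the groups alone. Each gene was centred on its mean over the 15 arrays, and the median over the 45 genes was taken for each array. That median lay between -0.132 and -0.066 in the 5 controls. It was -0.016, 0.221, 0.113, 0.071 and 0.163 in food-deprived arrays 1 to 5, so all 5 were above every control, with array 1 near 0. In water-deprived arrays 1 to 5 it was 0.174, 0.120, 0.050, -0.121 and -0.195. Water-deprived arrays 1 and 2, of the high set, thus resembled the food-deprived arrays, while arrays 4 and 5, of the low set, lay within or below the range of the controls. The 99th percentile of the whole array's signal ran from 1360 to 1430 in controls, 1368 to 1577 in water deprivation and 1385 to 1508 in food deprivation.

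**Figure D1:**
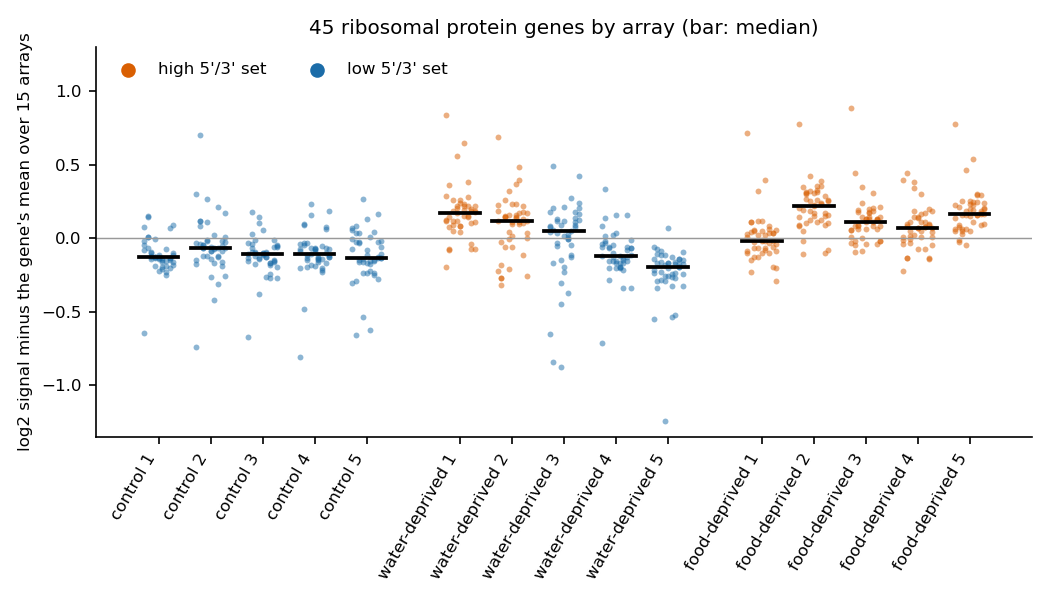
Each point is one of the 45 tested ribosomal protein genes on one array, as log2(signal + 16) minus the gene's mean over 15 arrays, and black bars are medians over genes. The arrays of food deprivation and arrays 1 and 2 of water deprivation (orange, high 5′/3′ set) mostly sit above 0, while the controls and water-deprived arrays 4 and 5 (blue, low set) sit below 0. Water-deprived array 3 (blue, low set) has a median above 0, at 0.050.

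With the array set as a term in the fit, the members' difference between food deprivation and control was near 0. The limma test then called 0 of 45 members (0 of all probe sets tested), and 0 had an unadjusted p under 0.05. Of the 45, 18 lay above 0, and the median was -0.03. High against low arrays, estimated in this fit from water-deprived arrays 1 and 2 against 3 to 5, 13 members were called higher and 0 lower, where 9.49% of all probe sets were called higher and 6.44% lower. The 13 include Rps4y2, which passed the filter only through its higher arrays. The members' median for that contrast was 0.25 against 0.07 over all probe sets, and 39 of 45 lay above 0. This contrast depended on the scaling. After quantile normalization its median was -0.04 with 17 of 45 above 0, and limma called 2 members higher and 2 lower, where 6.61% and 6.78% of all probe sets were called. After median centring the median was 0.10 with 30 of 45 above 0, and limma called 4 members higher and 2 lower, where 4.95% and 11.5% of all probe sets were called. Against the controls, the high water-deprived arrays had a median of 0.25 over members and the low ones 0.01. Without the set term, oligodendrocyte markers also lay above control in food deprivation, in 9 of 9 with a median of 0.65 and 0 passed. Choroid plexus markers did so in 4 of 6, with a median of 0.75 and 0 passed. With the set term, 4 of 9 oligodendrocyte markers lay above 0 (median -0.03) and 0 of 6 choroid plexus markers (median -0.81). Other lists did not all fall. Astrocyte markers lay above 0 in 6 of 9 without the set term (median 0.10) and in 9 of 9 with it (0.30). Neuron markers did so in 9 of 14 (0.17) and 12 of 14 (0.29), and microglia markers in 6 of 9 (0.08) and 7 of 9 (0.21). Endothelial markers did so in 7 of 9 (0.10) and 4 of 9 (-0.01). Of the 56 markers tested over all lists, only Cldn5, of endothelial tight junctions, passed without the set term (log2 0.64, SE 0.18, limma adjusted p = 0.0407). Over all probe sets, 4.77% were called higher and 3.76% lower, so this pass is not read as a result about endothelium. Cldn5 did not pass after median centring (limma adjusted p = 0.0939) or with the set term (limma adjusted p = 0.495). Whether 5′/3′ ratio, food deprivation or the cell makeup of the pools underlies the shift was not tested, and for food deprivation and array set the design cannot tell them apart.

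The scaling of the arrays also mattered for these bright genes. Quantile normalization gave a median difference of 0.02 between food deprivation and control, with 24 of 45 members above 0 and 2 called higher (Rpl14 and Rps27l, where 3.75% of all probe sets were). Centring each array on its median lowered the median of all probe sets by 0.10 and that of the members to 0.11, and 2 members were called higher (Rps27l and Rps6, where 3% of all probe sets were). Over all probe sets, the share of calls that were higher was 55.9% as deposited, 45.7% after quantile normalization and 35.6% after centring. The direction of the family as a whole is therefore that of the deposited scaling and of median centring, and is near 0 under quantile normalization.

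**Figure D2:**
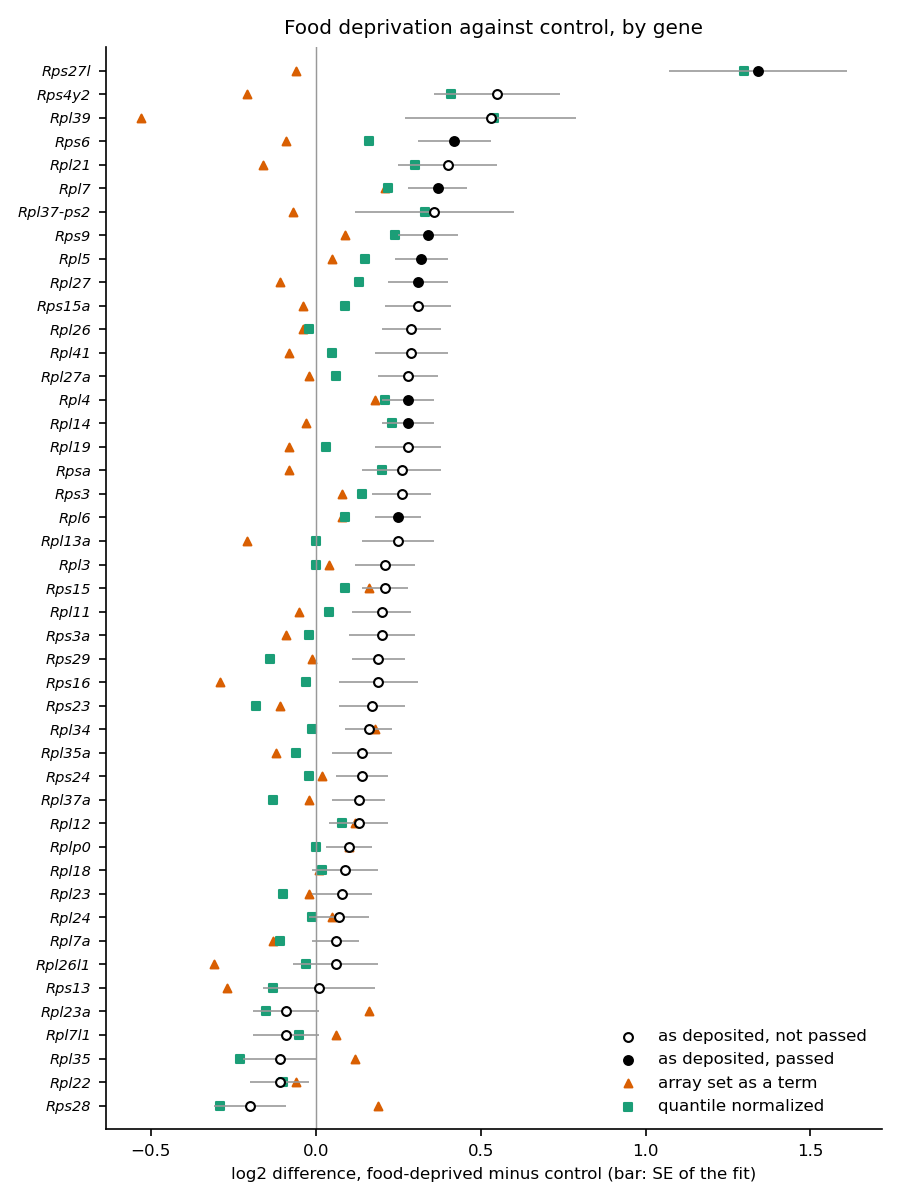
Log2 difference, food-deprived minus control, for the 45 tested genes in order of size, with circles and SE bars for the deposited values, triangles for the fit with a set term and squares for quantile normalized values. Filled circles are the 9 genes that passed, and most triangles and squares lie to the left of the circles, with the triangle of Rps27l at -0.06 against its circle at 1.34.

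Rps27l, a paralog of the small-subunit protein Rps27 known as a target of p53, had the largest difference of the 45. Its signal was 39.5, 36.0, 38.6, 33.6 and 54.2 in the controls and 127, 132, 144, 98.1 and 132 in the food-deprived arrays. In the water-deprived arrays it was 139 and 123 in arrays 1 and 2 and 39.3, 36.8 and 43.2 in arrays 3 to 5. The values fell into a high and a low range that followed the array set without exception, with no array between 54.2 and 98.1. Food-deprived rats were 2.53-fold above control on the log2(signal + 16) scale (log2 1.34, SE 0.27, limma adjusted p = 0.00894). With the array set as a term the difference was -0.06 (SE 0.20, limma adjusted p = 0.948), and high against low arrays differed by 1.40 (SE 0.16, limma adjusted p = 0.000189). Rps27l passed under quantile normalization and median centring and with any 1 of the 15 arrays left out.

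Of the 13 tested small-subunit proteins, 12 lay above 0 in food deprivation against control. Rps6 and Rps9 passed as higher, where 4.77% of all probe sets did. Rps6 is the substrate of the S6 kinases, whose phosphorylation is a common readout of mTOR activity, and these arrays measure its mRNA and not its phosphorylation. Its signal was 2662, 2519, 2644, 2716 and 2809 in controls and 3271, 3997, 3561, 3287 and 3832 in food deprivation. The groups did not overlap, and the difference was 1.34-fold (log2 0.42, SE 0.11, limma adjusted p = 0.0331). In water-deprived arrays 1 to 5 the signal was 3798, 4118, 2861, 2687 and 2772, so the first pair lay with the food-deprived arrays and the others near the controls. For Rps6 the contrast of high against low arrays was 0.51 (SE 0.09, limma adjusted p = 0.00334), and food deprivation against control with the set term was -0.09 (SE 0.11).

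Rps9 is a small-subunit protein laid down early in assembly. It measured 1479, 1491, 1525, 1589 and 1399 in controls and 1750, 1811, 1867, 1954 and 2095 in food deprivation (log2 0.34, SE 0.09, limma adjusted p = 0.0298). Its water-deprived arrays read 1935, 1925, 1871, 1559 and 1485, with array 3 of the low set among the high values. With the set term the difference was 0.09 (SE 0.13), and the set contrast of 0.24 (SE 0.11) did not pass (limma adjusted p = 0.132).

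Of the 27 tested large-subunit proteins, 24 lay above 0 in food deprivation against control. Of these, 6 passed as higher, where 4.77% of all probe sets did. Rpl5, which with Rpl11 binds the smallest ribosomal RNA and, when ribosome assembly fails, the p53 regulator Mdm2, measured 1860, 1940, 1867, 1917 and 1912 in controls. In food deprivation it measured 2177, 2491, 2444, 2235 and 2512, above every control (log2 0.32, SE 0.08, limma adjusted p = 0.032). The water-deprived arrays read 2354, 2384, 2194, 1909 and 1799. Its partner Rpl11 had control values from 1911 to 2089 and food-deprived values from 2143 to 2524, also without overlap, but did not pass (log2 0.20, SE 0.09, limma adjusted p = 0.153).

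Rpl7 carries 2 probe sets and is taken up again below. On its bright probe set it measured 1791, 1674, 1659, 1836 and 1828 in controls, 2269, 2053, 2311, 1851 and 1690 in water deprivation and 2087, 2407, 2221, 2286 and 2373 in food deprivation. The food-deprived values lay above every control (log2 0.37, SE 0.09, limma adjusted p = 0.0203), and the water-deprived values spanned both ranges. With the set term 0.21 (SE 0.14) was left, which did not pass (limma adjusted p = 0.653).

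Rpl4 lines the tunnel through which the new protein leaves the ribosome. Its signal was 1382, 1368, 1404, 1441 and 1279 in controls, 1599, 1523, 1748, 1353 and 1311 in water deprivation and 1564, 1765, 1630, 1672 and 1733 in food deprivation (log2 0.28, SE 0.08, limma adjusted p = 0.0464). Water-deprived array 3, of the low set, held its highest water-deprived value. Its difference with the set term was 0.18 (SE 0.14) and the set contrast was 0.10 (SE 0.11), neither of which passed.

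Rpl27, another large-subunit protein, divided by array set. It measured 2124, 2327, 2305, 2176 and 2206 in controls and 2686, 2787, 2707, 2727 and 2957 in food deprivation (log2 0.31, SE 0.09, limma adjusted p = 0.0491). Its water-deprived arrays of the high set read 2972 and 2911 and those of the low set 2163, 2198 and 2201, with nothing between. The set contrast was 0.42 (SE 0.07, limma adjusted p = 0.00234), and food deprivation against control with the set term was -0.11 (SE 0.09).

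Rpl14 and Rpl6, which sit side by side on the large subunit, completed the genes that passed. Rpl14 measured 1254, 1320, 1306, 1372 and 1301 in controls and 1456, 1714, 1586, 1587 and 1631 in food deprivation (log2 0.28, SE 0.08, limma adjusted p = 0.0489). Its water-deprived arrays read 1620 and 1601 in the high set and 1296, 1337 and 1261 in the low set, again in separate ranges. Rpl6 measured 2002, 1980, 1982, 2120 and 2028 in controls and 2270, 2465, 2430, 2357 and 2481 in food deprivation (log2 0.25, SE 0.07, limma adjusted p = 0.0456). In water deprivation Rpl6 read 2386, 2428, 2396, 2092 and 1961, and its set-term difference was 0.08 (SE 0.11) against a set contrast of 0.17 (SE 0.09).

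The count of 9 rests on single arrays. Leaving out 1 array at a time left between 1 and 14 members called higher. It was 1 without control 3 or food-deprived array 2, 2 without control 1, control 5 or food-deprived array 3 or 5, 3 without control 4, 4 without control 2 or food-deprived array 4, and 14 without water-deprived array 1. The median difference over members stayed between 0.18 and 0.25 in these fits. The share of all probe sets called is not given for them, so these counts describe only how unsteady the 9 calls are.

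**Figure D3:**
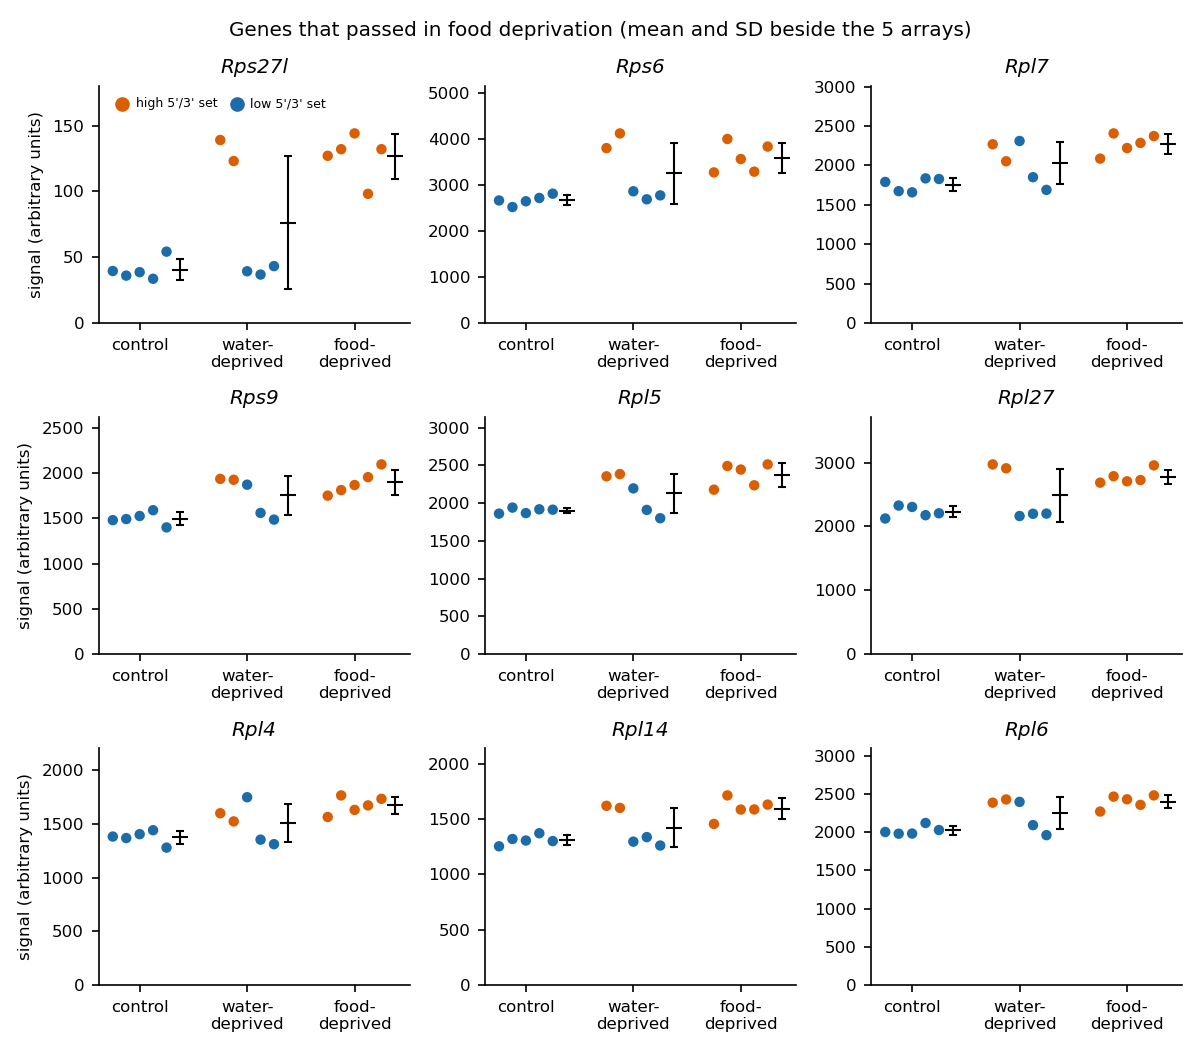
Signal of the 9 genes that passed, on linear axes from 0, with one point per array in order of replicate number and the mean and SD of each group beside its points. Rps27l, Rps6, Rpl27 and Rpl14 split the water-deprived arrays by colour, and Rpl7, Rps9, Rpl5, Rpl4 and Rpl6 have water-deprived array 3 (blue) among or near the high values.

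Just short of the threshold were several members of both subunits. Rpl27a had a log2 difference of 0.28 (SE 0.09, limma adjusted p = 0.0582), Rpl26 of 0.29 (SE 0.09, limma adjusted p = 0.062) and Rps15a of 0.31 (SE 0.10, limma adjusted p = 0.0673). Without adjustment, 24 of the 45 had a p under 0.05. The reference genes Rplp0, a protein of the stalk that recruits elongation factors, and Rpl13a, which also has a role in silencing mRNAs in inflammation, did not pass. Rplp0 differed by 0.10 (SE 0.07, limma adjusted p = 0.363), with controls from 1624 to 1813 and food-deprived arrays from 1764 to 1901. Rpl13a differed by 0.25 (SE 0.11, limma adjusted p = 0.151), with controls from 2651 to 2843, food-deprived arrays from 2893 to 3642 and no overlap. For Rpl13a the set contrast was 0.46 (SE 0.10, limma adjusted p = 0.00854), while for Rplp0 it was 0.00 (SE 0.09).

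The 5 members below 0 were Rps28, Rpl22, Rpl35, Rpl23a and Rpl7l1, and none passed. Rps28, a small protein of the small subunit, measured 1837, 1807, 1700, 1770 and 1706 in controls and 1420, 1543, 1557, 1515 and 1651 in food deprivation. All food-deprived values lay under every control, with a log2 difference of -0.20 (SE 0.11, limma adjusted p = 0.288). Its water-deprived arrays read 1576, 1330, 2345, 1831 and 1583. Array 3, which has the lowest 5′/3′ ratio, stands far above the others. With the set term the sign turned to 0.19, and high against low arrays differed by -0.38 (SE 0.13, limma adjusted p = 0.0586). Rpl22, an RNA-binding protein of the large subunit, differed by -0.11 (SE 0.09) and Rpl35, which sits at the exit of the protein tunnel, by -0.11 (SE 0.11). Rpl35 also turned sign with the set term, to 0.12. Pyrimidine runs were present at members below 0 as well, as the windows of Rpl22 and Rpl35 printed above show. Over the tested subunit proteins with a sequence, the median difference was 0.20 for the 24 with a tract and 0.23 for the 10 without.

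Water deprivation against control asks which transcripts differ when rats lack water, and 0 of 45 members passed in either direction with limma (0.0046% of all probe sets called higher, 0 lower). Without adjustment 3 members had a p under 0.05, namely Rps6, Rps9 and Rpl7. Their log2 differences were 0.26 (SE 0.11) for Rps6, 0.22 (SE 0.09) for Rps9 and 0.20 (SE 0.09) for Rpl7, with limma adjusted p values of 0.752, 0.719 and 0.752. The differences lay above 0 for 35 of 45 members, with a median of 0.11 against 0.00 over all probe sets. After quantile normalization 24 of 45 lay above 0, with a median of 0.01. Both comparisons against control share the 5 control arrays. Rps13 at -0.31 (SE 0.17), Rpl23a at -0.13 (SE 0.10) and Rpl7l1 at -0.10 (SE 0.10) were the members with the smallest p among those below 0. Rps13 is dim, and its mean log2(signal + 16) in water deprivation, 5.03, lay under the filter.

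The water-deprived group was itself divided. Arrays 1 and 2 exceeded arrays 3 to 5 in 39 of 45 members in the deposited values, which is the array-set contrast given above. Against the controls, arrays 3 to 5 alone gave a median of 0.01, with 26 of 45 above 0. The set-term estimate for water deprivation against control was this same difference, since every control is in the low set. Its median of 0.01 is therefore not a separate result. Apart from Rps27l, the gene that separated the sets most was Rpl39. Rpl39, a very small protein of the tunnel wall, read 199 and 166 in water-deprived arrays 1 and 2 and 91.1, 115 and 45.5 in arrays 3 to 5 (set contrast 1.05, SE 0.26, limma adjusted p = 0.0154). Rps4y2, with a signal from 7.5 to 40.8 over all arrays, had a mean log2(signal + 16) of 4.94 in controls, under the filter of 5.11, and passed the filter only through its higher arrays. It is one of the 13 members called higher in the high set, and its contrast is not given as a result for that reason.

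Water deprivation against food deprivation also gave 0 of 45 members in either direction with limma (0.133% of all probe sets called higher, 0.0184% lower), and 4 members had an unadjusted p under 0.05. Members lay lower in water deprivation in 38 of 45 cases, with a median of -0.13 against -0.04 over all probe sets. The median was -0.05 after quantile normalization and -0.04 after median centring, with 31 and 26 of 45 lower. Markers of oligodendrocytes also lay lower in water than in food deprivation (9 of 9, median -0.76), as did those of microglia (9 of 9, median -0.47). Of either list 0 passed with limma (5 of each had an unadjusted p under 0.05). Neuron (11 of 14, median -0.22), astrocyte (7 of 9, -0.25), endothelial (6 of 9, -0.12) and choroid plexus markers (4 of 6, -0.29) mostly did so too. With the array set as a term, oligodendrocyte and microglia markers stayed lower in 9 of 9 each (both medians -0.46). Astrocyte (9 of 9, -0.29), neuron (12 of 14, -0.24) and endothelial markers (6 of 9, -0.05) mostly stayed lower, and choroid plexus markers lay higher (6 of 6, 0.83). The part of these markers in the members' difference was not tested. Rps27l at -0.79 (SE 0.27, limma adjusted p = 0.175), Rpl34 at -0.18 (SE 0.07) and Rpl21 at -0.35 (SE 0.15) had the smallest p on that side. Rpl22 at 0.12 (SE 0.09), Rps28 at 0.15 (SE 0.11) and Rpl7a at 0.05 (SE 0.07) had the smallest on the other. With the array set as a term the members' median was 0.03. A moderated F test for any difference among the 3 groups called 1 member, Rps27l (limma adjusted p = 0.0288), and 3.56% of all probe sets.

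Rpl7 shows how far probe sets of a single gene can part. Its dim probe set measured 41.7, 65.9, 57.7, 48.5 and 56.5 in controls and 285, 290, 345, 260 and 290 in food deprivation. In water deprivation it measured 249 and 154 in arrays 1 and 2 and 57.6, 49.6 and 64.4 in arrays 3 to 5. All values of the low set lay at or under 65.9 and all of the high set at or above 154. Food deprivation exceeded control by 4.44-fold on this probe set (log2 2.15, SE 0.30, limma adjusted p = 0.00163), against 1.29-fold on the bright one. The set contrast was 1.54 (SE 0.19, limma adjusted p = 0.00026) on the dim probe set and 0.16 (SE 0.12) on the bright one. With the set term, 0.61 (SE 0.23) was left on the dim probe set, which did not pass (limma adjusted p = 0.52). Which part of the Rpl7 transcript each probe set reads is not given in the sources used here.

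**Figure D4:**
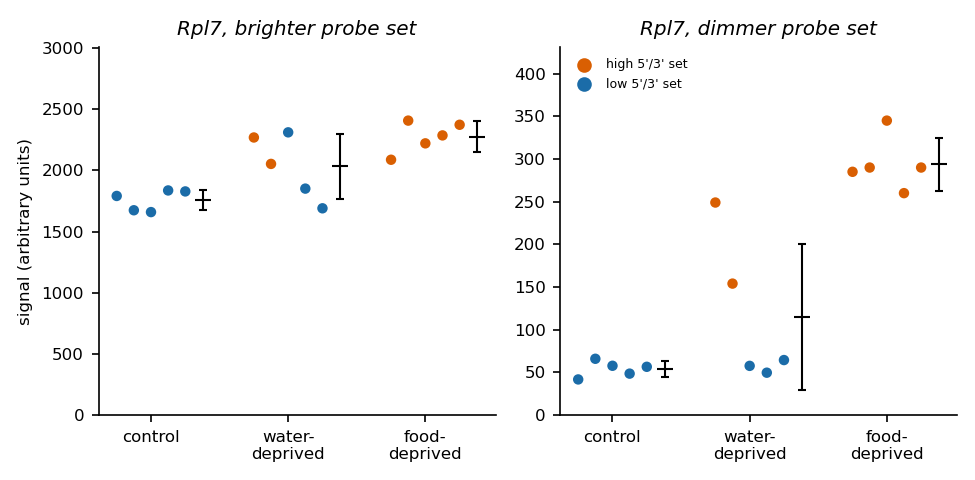
Signal of the Rpl7 probe sets on linear axes from 0, with one point per array in order of replicate number and the mean and SD of each group. On the dimmer probe set the high 5′/3′ arrays (orange) lie between 154 and 345 and the low arrays (blue) between 41.7 and 65.9, a gap the brighter probe set does not show.

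Other members with several probe sets parted less. Rpsa, the small-subunit protein also described as a laminin receptor, has 3, with food deprivation above control by 0.26 (SE 0.12), 0.19 (SE 0.07) and 0.07 (SE 0.11) from the brightest to the dimmest, none of which passed. Rpl3, which reaches toward the catalytic centre of the ribosome, differed by 0.21 (SE 0.09) and 0.29 (SE 0.12). Rps24 differed by 0.14 (SE 0.08) and -0.10 (SE 0.09). Rpl7l1, a paralog of Rpl7 that acts in ribosome assembly, differed by -0.09 (SE 0.10) and 0.29 (SE 0.11), so its probe sets have opposite signs. Rpl14 has a second probe set below the filter, with a mean signal of 6.93 in controls, 21.7 in water deprivation and 33.9 in food deprivation.

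Ribosomal protein genes varied little between pools of the same group. The median SD within groups was 0.142 on the log2 scale, against 0.239 over all probe sets tested and 0.171 over the 518 probe sets with a mean above 10. Rplp0 had the lowest of the members (0.070), at the 0.2 percentile of all probe sets. Rpl6 (0.089), Rpl34 (0.091), Rps15 (0.092) and Rpl7a (0.093) followed, all within the lowest 1.4 percent. At the other end, Rps27l had 0.471, Rpl39 0.448 and Rpl37-ps2 0.416, all of them dim. The spread within groups contains the split of the water-deprived arrays by array set.

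**Figure D5:**
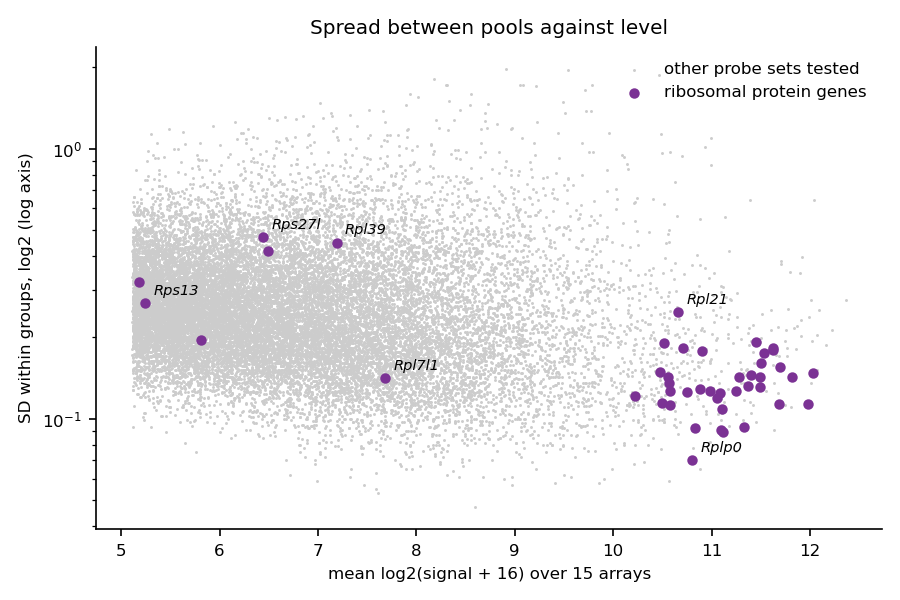
SD within groups on the log2 scale (log axis) against the mean log2(signal + 16) over 15 arrays, for all tested probe sets (grey) and the 45 ribosomal protein genes (purple). Most members form a cloud at the right with SDs between 0.070 and 0.25, with Rplp0 lowest, while Rps27l and Rpl39 lie higher at dimmer signals.

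Most pairs of members were positively correlated across arrays. Over the 780 pairs of the 40 tested subunit proteins, Pearson's r across the 15 arrays, after the mean of each group was subtracted, had a median of 0.56 and ran from -0.70 to 0.98, with 87.2% of pairs above 0. Without that subtraction, 36 of the 45 had r above 0.5 with the median profile of the other members and 9 did not. Rpl27a (0.99), Rpl19 (0.98) and Rps15a (0.98) followed that profile most closely. Rpl7l1 (-0.46), Rps28 (-0.33), Rpl23a (-0.21) and Rpl22 (-0.12) ran against it. These correlations describe 15 arrays that share their scaling and the array sets, and carry no test. Outside the family, the genes most like the members' median profile were Calm2 (r = 0.985 over 15 arrays), which encodes calmodulin, Morf4l1 (0.945), a chromatin protein, and Polr2g (0.924), a subunit of RNA polymerase II. Of these, Morf4l1 passed in food deprivation against control (log2 0.32, SE 0.09, limma adjusted p = 0.0357) and stood at 0.00 with the set term, while Calm2 at 0.29 (SE 0.09, limma adjusted p = 0.068) did not pass.

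Other parts of the translation machinery and other genes with TOP mRNAs stood beside these genes. Their counts are to be read against the 4.77% of all probe sets called higher and 3.76% called lower in food deprivation against control. Among other genes with TOP mRNAs, not all of them of the translation machinery, limma called 0 of 15 in that comparison. Of these, 6 had an unadjusted p under 0.05, and the median was 0.08. After quantile normalization 1 passed, Hnrnpa1, at 0.41 (SE 0.11, limma adjusted p = 0.0372). Eef1a1, the elongation factor that delivers tRNAs, was closest, at 0.40 (SE 0.12, limma adjusted p = 0.0519). Rack1, a ribosome-bound protein whose symbol is outside the rule, stood at 0.06 (SE 0.08). Mitochondrial ribosomal proteins, which build the separate ribosomes of mitochondria, had a median of -0.03 over 73 genes, with 1 higher (Mrps18c, 0.63, SE 0.15, limma adjusted p = 0.0227) and 2 lower (Mrpl47 at -0.43, SE 0.09, limma adjusted p = 0.0109, and Mrpl54 at -0.43, SE 0.12, limma adjusted p = 0.0405). The difference between these lists and the cytosolic genes was not tested. Mrpl54 did not pass after quantile normalization (limma adjusted p = 0.0503), Mrps11 passed as lower after median centring (-0.36, SE 0.11, limma adjusted p = 0.0477), and with the array set as a term 0 of the 73 passed.

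Of 40 genes for ribosome assembly, 2 passed, both higher in food deprivation, where 4.77% of all probe sets were, which is close to this share, and the median was 0.03. Sbds, which frees the large subunit for translation, rose by 0.64 (SE 0.13, limma adjusted p = 0.01), and Ncl, the nucleolar protein nucleolin, rose by 0.39 (SE 0.11, limma adjusted p = 0.0373). Median centring left Ncl short of the threshold (limma adjusted p = 0.0593). In the list of mTOR and TOP control genes, 2 of 20 were higher and 2 lower, where 4.77% and 3.76% of all probe sets were. Eif4ebp1, a repressor of cap-dependent translation that mTOR inactivates, rose by 0.48 (SE 0.10, limma adjusted p = 0.01), and Ddit4, a stress-induced inhibitor of mTOR, rose by 0.58 (SE 0.17, limma adjusted p = 0.0435). Eif4ebp2, the brain's main paralog of Eif4ebp1, fell by 0.67 (SE 0.12, limma adjusted p = 0.005), and Tsc2, which also restrains mTOR, fell by 0.76 (SE 0.19, limma adjusted p = 0.0242). Ddit4 did not pass after median centring (limma adjusted p = 0.0711), while Nop56 at -0.35 (SE 0.10, limma adjusted p = 0.0453) and Larp1 at -0.62 (SE 0.18, limma adjusted p = 0.0454) then passed as lower. With the array set as a term none of these passed, with Sbds at 0.17, Ncl at -0.06, Eif4ebp1 at 0.30, Ddit4 at 0.17, Eif4ebp2 at -0.26 and Tsc2 at 0.16.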

How the data were processed

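RNA of pooled subfornical organs was amplified and labelled with biotin, per the labels, and hybridised to Affymetrix arrays. The authors deposited one linear intensity (signal) for each probe set, and the submitters' processing notes name GCOS 1.2 without a target. Each array has a trimmed mean of 100, so the values are scaled, and their number limits the precision. They were used as log2(signal + 16). Probe sets with a mean above the 30th percentile were tested, 21729 in all, with the 57 control probe sets left out. R 4.3.3 and limma 3.58.1 fitted the 3 groups together (12 residual degrees of freedom, 11 with the array set), two-sided, with a variance trend, Benjamini-Hochberg adjustment over all probe sets and a threshold of 0.05. The array set splits arrays at a mean log2 5′/3′ ratio of -1.

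The rule names, per comparison, the members that passed, up to 10 per direction, or else the 3 with the smallest p, plus fixed reference genes and paralogs, the 3 probe sets most like the members and up to 3 genes per list that passed. Genes outside it were chosen after their values were seen. The members, lists and alternatives were chosen with earlier results of these data known. Alternatives were quantile normalization, median centring, other offsets and filters, no variance trend, array weights, the replicate block, the array set or ratio as a term, fits of 2 groups, subunit proteins only, probe set means and leaving out each array. The fit was checked on simulated data. Symbols come from the platform annotation, and 48 of 50 gene identifiers were in the RefSeq table. Figures were drawn with Python 3.11.15 and matplotlib 3.10.9.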

Additional observations from a re-analysis of the deposited data

Results flagged for a closer look

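In 5 of 78 series of 5 arrays tested for an outlying array, 1 array stood apart from the other 4 of its group. Chance gives such a result in about 1 in 20 groups, or 3.9 here. Log2(signal + 16) of Rpl3, a large-subunit protein, was 11.46 in food-deprived array 1, below the others at 11.60 to 11.65. Rpl35, at the exit of the protein tunnel, was 11.32 in water-deprived array 3 against 10.65 to 10.84. Rpl39, in the tunnel wall, was 7.65 in food-deprived array 5 against 7.51 to 7.54. Rpl7l1, the paralog of Rpl7, was 8.01 in water-deprived array 4 against 7.50 to 7.60. Rpl21, a large-subunit protein, was 10.87 in control 2 against 10.39 to 10.45.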

How the results depend on the processing

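Of 9 members higher in food deprivation, quantile normalization and median centring each left 2, no variance trend 5, the replicate block 1 (Rps27l) and adding the set or the ratio as a term 0. Array weights gave 24, and a fit of only the 2 groups compared gave 21 higher and 1 lower (Rps28). A share of all probe sets called is given above only for the deposited, quantile-normalized, median-centred and set-term fits. Counts under the other settings have no such share beside them and are not read as results about the members. Dropping 1 array gave 1 to 14 higher, with Rps27l among them each time. With no filter 6 were called, of which 5 were among the 9 and the other was Rpl30. The 13 higher in the high array set became 2 after quantile normalization, 4 after centring, 8 without a trend, 21 with array weights and 4 with the replicate block, and 3 (without water-deprived array 2) to 17 (without array 3) with 1 array dropped. It was 4 without water-deprived array 1 and 8 without array 4 or 5. Lower in the high set were 2 after quantile normalization (Rpl37a and Rps28), 2 after centring (Rpl23a and Rps28) and 0 to 1 with 1 array dropped. Array weights gave 16 members lower in water than in food deprivation, and dropping 1 array 0 to 1. The F test called 21 members with array weights and 0 to 3 with 1 array dropped. Its only call without these changes was Rps27l, a paralog, so keeping subunit proteins only had to give 0.

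Medians moved to 0.02 (quantile) and -0.03 (set term) for food deprivation against control, to 0.03 (set term), -0.05 (quantile) and -0.04 (centring) for water against food deprivation, to 0.01 (quantile and set term) for water deprivation against control, and to -0.04 (quantile) and 0.10 (centring) for the set contrast. With 1 array dropped they ran from 0.18 to 0.25, from -0.16 to -0.06 and from 0.18 to 0.31, and from 0.07 to 0.16 for water deprivation against control. Over all 45 members, the sign of food deprivation against control turned in 30 with the set term, 16 after quantile normalization, 7 after centring and 6 with the ratio as a covariate. Among the members named by the rule, those that turned with the set term were Rpl11 (-0.051), Rpl13a (-0.21), Rpl14 (-0.03), Rpl27 (-0.11), Rpl39 (-0.53), Rps27l (-0.06), Rps6 (-0.089), Rpsa (-0.082), Rpl35 (0.12), Rpl7l1 (0.06) and Rps28 (0.19), and, for water against food deprivation, Rps27l (0.054) and Rps28 (-0.084). With the ratio as a covariate the named members that turned were Rpl35 (0.093) and Rps28 (0.032, and -0.05 for water against food deprivation). Of the named members, quantile normalization turned Rpl3 (-0.0032) and Rplp0 (-0.0015), centring Rplp0 (-0.0014) and array weights Rpl7a in water against food deprivation (-0.0093). The cause was not tested.

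Same-numbered arrays of different groups correlated between -0.36 and 0.37, above 0.1 in 3 of 15 pairs, so the replicate numbers show no pairing. With 5 arrays a group, a difference that did not pass is not shown to be absent.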
